A study of Homo sapiens with 20 samples.

Results

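Immune checkpoint ligands and related shields of tumour cells were followed as mRNAs through photothermal treatment of MDA-MB-231, an established human triple-negative breast cancer line. The set was a list of 9 gene symbols, CD274, PDCD1LG2, CD276, PVR, NECTIN2, CD47, CD24, CD55 and CD59. All 9 were found among the 36601 genes of the deposited count table, and all 9 passed the filter on low counts that left 12149 genes for testing. Of these, 7 could be judged, and PDCD1LG2 and CD24 were too low to judge, with median counts of 4.5 and 5.5 per library against a minimum median of 10 set here.

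Checkpoint ligands sit on the tumour cell surface and bind inhibitory receptors on immune cells. PD-L1 and PD-L2, the products of CD274 and PDCD1LG2, bind PD-1 on T cells, and B7-H3, the product of CD276, belongs to the same B7 family but has no agreed receptor. PVR (CD155) and NECTIN2 (CD112) bind TIGIT, which restrains T and natural killer cells, and also CD226, which activates them. CD47 binds SIRP-alpha on macrophages and CD24 binds Siglec-10, and both act as signals against phagocytosis. CD55 speeds the decay of the complement convertases and CD59 blocks assembly of the membrane attack complex, so that both shield a cell from complement, and both are held in the membrane by a GPI anchor.

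The series holds 20 libraries in 5 groups of 4. In 4 groups the cells were incubated for 4 h with 0.1 mg/ml of biomimetic nanoparticles, either without laser light (nanoparticles alone) or followed by 10 min of 808 nm light with the temperature held at 46, 50 or 54 °C. The fifth group received neither nanoparticles nor light (untreated). All groups were grown at 37 °C in 96-well plates, 2 wells were pooled for each RNA sample, and no source used here gives the time between light and lysis. Light without nanoparticles was not analysed here, so light, heat and their joint action with the nanoparticles cannot be told apart. Because the labels do not tie the replicates to separate cultures, the p-values cover only the spread between these libraries, and that spread may be technical.

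The libraries were read from the 3' ends of mRNAs and held 2401180 to 7710977 counts, with group means of 3800525 with nanoparticles alone, 2872173 at 46 °C, 4130926 at 50 °C, 6769582 at 54 °C and 3386464 in untreated cells. All 6 markers of MDA-MB-231 listed for this check (VIM, CD44, AXL, CAV1, S100A4 and KRT18) were counted in every library, while of 6 markers listed as low in this line ESR1, PGR and CDH1 were at 0 in 16, 19 and 18 of the 20. The other 3 were low but not absent: GATA3 averaged 13.1 CPM, ERBB2 9.11 CPM and EPCAM 7.10 CPM, with EPCAM at 0 in 2 libraries. Of 12 immune cell markers and receptors, PDCD1, TIGIT and SIGLEC10 were at 0 in all 20 libraries, and their summed level ran from 7.3 to 22.1 CPM over the nanoparticle libraries and from 15.9 to 19.9 CPM in untreated ones, mostly from CD68 and SIRPA. The heat treatment itself was visible at 46 °C. HSPA1A, an inducible heat shock chaperone whose reads can be shared with the near-identical HSPA1B, had 1538, 1711, 1558 and 2234 CPM in the 46 °C libraries, against 38.2, 32.2, 21.8 and 22.4 CPM in those with nanoparticles alone. All 5 heat shock genes of the check list were called higher at 46 °C than with nanoparticles alone, and 0 of 5 were called at 50 °C or at 54 °C. Levels are TMM-scaled CPM; with 3' end counting they are compared between samples of 1 gene, not between genes.

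None of the 9 genes was called higher or lower in any of the 7 comparisons. Calls required an adjusted p under 0.05 in edgeR's quasi-likelihood test with Benjamini-Hochberg adjustment over all 12149 genes. Against nanoparticles alone the share of all tested genes that were called was 0.963% at 46 °C (117 genes), 1.22% at 50 °C (148 genes) and 0.123% at 54 °C (15 genes), so that 0 of 9 is near what these shares alone would give. Between nanoparticles alone and untreated cells the share was 0%, with 479 genes at an unadjusted p under 0.05, and between temperatures it was 1.19% for 50 against 46 °C, 0.198% for 54 against 50 °C and 0.634% for 54 against 46 °C. DESeq2 also called 0 of the 9 in each of the 7 comparisons.

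Looser criteria were also read. At an unadjusted edgeR p under 0.05, 0 of the 9 genes were found at 46, 50 or 54 °C against nanoparticles alone, where 11%, 11.4% and 5.75% of all genes were found. Between temperatures it was again 0 of 9, where 10.6% of all genes were found for 50 against 46 °C, 6.02% for 54 against 50 °C and 8.56% for 54 against 46 °C. Between nanoparticles alone and untreated cells it was 1 of 9, CD59, where 3.94% of all genes were found. None of the 9 was free of overlap between the 4 libraries of each group at 46, 50 or 54 °C against nanoparticles alone, where 6.96%, 8.33% and 4.28% of all genes were, nor between temperatures, where 7.1%, 5.13% and 5.73% were (50 against 46 °C, 54 against 50 °C, 54 against 46 °C).

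The 95% intervals of the fold changes bound what could have gone unseen. In the 3 laser comparisons with nanoparticles alone, the interval lay within a 2-fold change either way for 6 of the 7 judged genes at 46 °C, 7 of 7 at 50 °C and 7 of 7 at 54 °C, and the exception was CD274. Within a 1.5-fold change the counts were 5, 4 and 5 of 7 at 46, 50 and 54 °C. The median log2 change over all 9 was −0.05 at 46 °C, 0.09 at 50 °C and −0.07 at 54 °C. In these bulk samples a change in the number of cells that carry an mRNA and a change in mRNA per cell cannot be told apart, and surface protein was not measured.

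**Figure D1:**
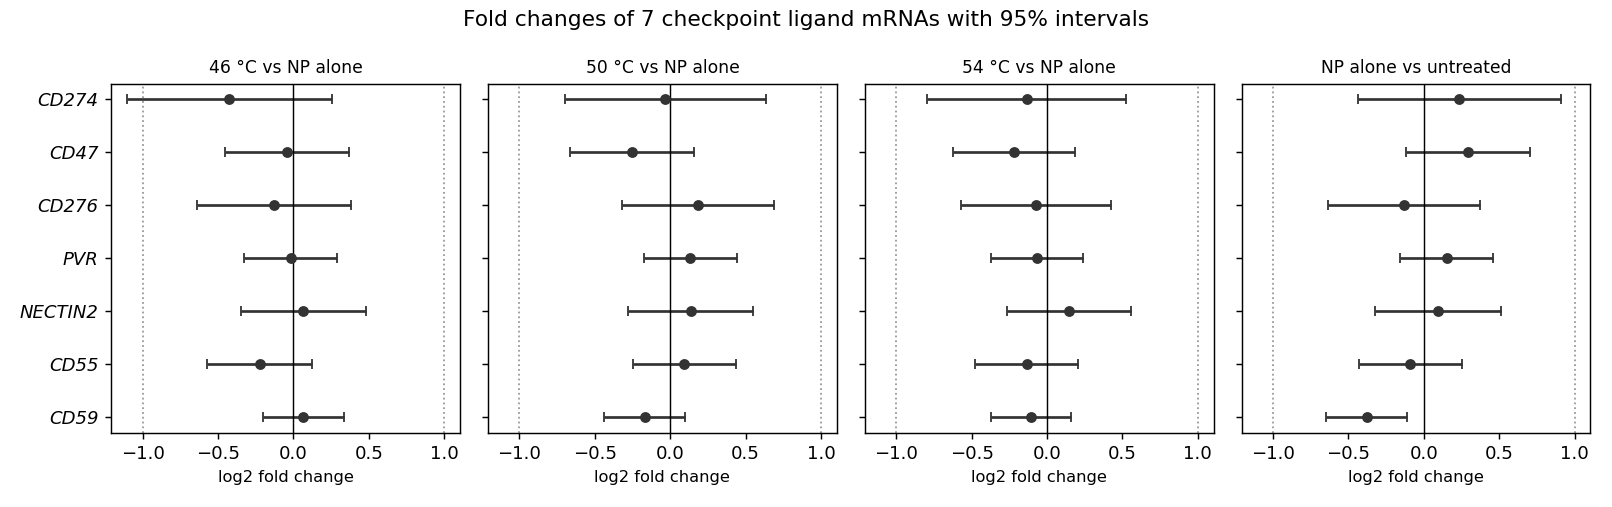
Log2 fold change (points) with its 95% interval (bars) of the 7 judged genes in 4 comparisons, from the fit over 20 libraries; dotted lines mark a 2-fold change. The interval of CD274 at 46 °C passes −1, and in the panel of nanoparticles alone against untreated cells that of CD59 lies below 0.

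CD274, on chromosome 9 (ENSG00000120217, chr9:5450503-5470566, plus strand, GENCODE v29 on GRCh38), encodes PD-L1 and was the least precisely measured of the 7 judged genes, with 31 to 171 counts per library. It had 14.6, 24.5, 25.4 and 24.3 CPM in replicates 1 to 4 with nanoparticles alone and 23.4, 12.5, 12.2 and 17.9 CPM at 46 °C. It had 15.8, 13.4, 33.5 and 24.1 CPM at 50 °C, 15.6, 12.2, 28.0 and 25.3 CPM at 54 °C, and 17.4, 20.2, 21.1 and 16.6 CPM in untreated cells. Every group overlapped every other, and at both 50 and 54 °C replicates 3 and 4 were above replicates 1 and 2. The log2 fold change against nanoparticles alone was −0.42 ± 0.34 at 46 °C (SE, n = 4 per group; edgeR adjusted p = 0.726), with a 95% interval from −1.10 to 0.26, a fold of 0.466 to 1.19. It was −0.03 ± 0.33 at 50 °C (adjusted p = 0.989) and −0.13 ± 0.33 at 54 °C (adjusted p = 0.999), and nanoparticles alone against untreated cells had 0.24 ± 0.34 (adjusted p = 1).

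The promoter window of CD274 is printed because IRF1, the interferon-driven activator known to act on this gene, rose at 50 °C while CD274 was not called. It comes from RefSeq (GRCh38.p14) and runs from 250 bases before to 50 bases after the transcription start. The capitals mark 2 overlapping matches to an IRF1 element (GAAA, any 2 bases, GAAA), read here on the other strand, whose first bases lie 208 and 202 bases before the start. Of 35116 promoters in the same table, 3.57% held this motif on either strand.
CD274, chr9:5450292-5450591, plus strand: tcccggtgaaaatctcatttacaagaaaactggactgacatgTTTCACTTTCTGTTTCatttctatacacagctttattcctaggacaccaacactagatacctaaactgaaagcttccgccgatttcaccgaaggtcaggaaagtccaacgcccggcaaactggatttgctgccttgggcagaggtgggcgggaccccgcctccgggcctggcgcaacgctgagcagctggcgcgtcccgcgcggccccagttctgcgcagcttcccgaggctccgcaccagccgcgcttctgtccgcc
Neither GAANNTTC (a heat shock factor element, 6.77% of promoters), TGANTCA (an AP-1 site, 7.71%) nor CACGTG (an E-box, the kind of site MYC binds, 7.26%) was found in these letters. Windows were found for 8 of the 9 genes, 14 in all, with none listed for PDCD1LG2.

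IRF1 had 94.4, 71.0, 68.2 and 71.3 CPM in the 50 °C libraries. Those with nanoparticles alone had 43.3, 42.7, 28.96 and 46.7 CPM, with no overlap. Of all tested genes, 8.33% did not overlap in this comparison. The log2 fold change of IRF1 was 0.91 ± 0.22 (SE, n = 4 per group, edgeR adjusted p = 0.0193). The call rested on single libraries: the adjusted p ran from 0.0293 to 0.129 when 1 of the 8 libraries was left out and passed 0.05 without replicate 1 of 50 °C or without replicate 2 or 3 of nanoparticles alone; it was also lost within either pair of replicates. At 54 °C IRF1 had 53.8, 49.3, 63.6 and 63.9 CPM, above all 4 libraries with nanoparticles alone. In that comparison 4.28% of all tested genes did not overlap. The log2 fold change of 0.51 ± 0.22 for IRF1 was not called (edgeR adjusted p = 0.79). JUN, an AP-1 subunit that can act on CD274, had 558.7, 622.7, 404.3 and 765.9 CPM at 46 °C, against 126.7, 152.2, 167.7 and 137.8 CPM in libraries with nanoparticles alone, and was called higher (edgeR adjusted p = 2.02e-10), in the group where the mean of CD274 was lowest. These were the only calls at 46 and 50 °C among 27 tested regulators of PD-L1 (of 28 listed: interferon signalling, transcription factors, protein stability and mRNA binding). That is 1 of 27 at each temperature, where 0.963% and 1.22% of all tested genes were called. At 54 °C 0 of 27 were called, against 0.123% of all tested genes. The median log2 change of these regulators was 0.07 at 46 °C, −0.03 at 50 °C and 0.02 at 54 °C.

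**Figure D2:**
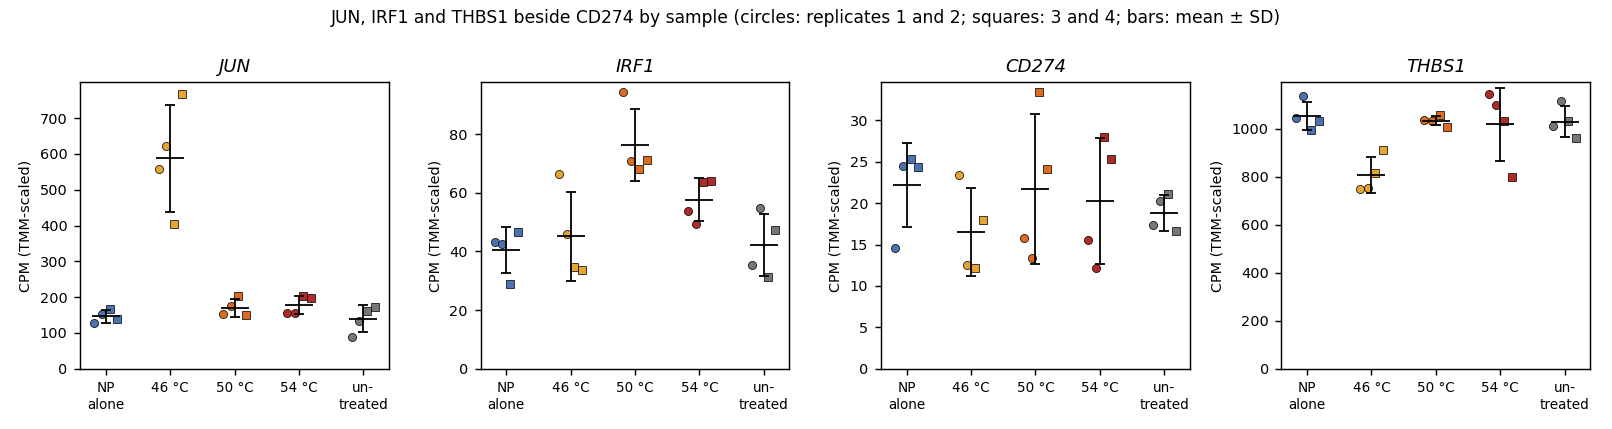
Levels (CPM, linear axes from 0) of JUN, IRF1, CD274 and THBS1 in the 20 libraries, by group; bars give the mean ± SD of 4 samples. JUN stands above the other groups at 46 °C, IRF1 is highest on average at 50 °C (76.2 ± 12.2 CPM), and the groups of CD274 overlap throughout.

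PDCD1LG2 (ENSG00000197646, chr9:5510570-5571254, plus strand), which encodes PD-L2, lies downstream of CD274 on the same strand. Its counts were 0, 6, 0 and 6 with nanoparticles alone, 4, 14, 3 and 0 at 46 °C, 0, 19, 0 and 0 at 50 °C, 7, 5, 11 and 18 at 54 °C, and 5, 0, 17 and 3 in untreated cells. That is 118 counts over all 20 libraries with 7 libraries at 0, and the only group without a 0 was 54 °C, whose libraries were the deepest. The interval of its log2 fold change at 46 °C against nanoparticles alone ran from −1.97 to 4.34 around 1.18, so no size of change can be named.

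CD276 (ENSG00000103855, chr15:73683966-73714518, plus strand) encodes B7-H3. It had 31.8, 28.2, 29.7 and 43.5 CPM with nanoparticles alone, 24.4, 32.2, 39.2 and 26.2 CPM at 46 °C, and 25.2, 47.7, 30.7 and 48.0 CPM at 50 °C. It had 32.9, 32.2, 27.1 and 34.5 CPM at 54 °C and 39.3, 38.6, 40.8 and 27.1 CPM in untreated cells. All groups overlapped, and the 50 °C libraries fell into a low and a high pair that crossed the replicate numbers. The log2 fold changes against nanoparticles alone were −0.13 ± 0.25 at 46 °C, 0.19 ± 0.25 at 50 °C and −0.07 ± 0.25 at 54 °C (SE, n = 4 per group; edgeR adjusted p = 0.918, 0.857 and 0.999).

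PVR and NECTIN2 lie near each other on chromosome 19. PVR (ENSG00000073008, chr19:44643798-44663583, plus strand) had 123.7, 139.1, 130.5 and 119.4 CPM with nanoparticles alone, 126.9, 97.0, 126.5 and 156.2 CPM at 46 °C, and 157.0, 133.0, 154.8 and 117.3 CPM at 50 °C. It had 112.1, 122.5, 140.1 and 115.5 CPM at 54 °C and 110.8, 94.6, 124.5 and 132.4 CPM in untreated cells. The groups overlapped, and PVR was among the more tightly bounded genes: its log2 fold change was −0.02 ± 0.15 at 46 °C, 0.13 ± 0.15 at 50 °C and −0.07 ± 0.15 at 54 °C (SE, n = 4 per group; edgeR adjusted p = 0.982, 0.829 and 0.999). The 95% intervals ran from 0.797-fold to 1.22-fold at 46 °C, from 0.886-fold to 1.36-fold at 50 °C and from 0.774-fold to 1.18-fold at 54 °C. PVR overlaps CEACAM19 on its strand and an antisense RNA in the annotation, and the strand setting of the counting is not known here, so reads from these genes cannot be told apart.

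NECTIN2 (ENSG00000130202, chr19:44846175-44889228, plus strand, with an antisense RNA annotated over it) had 47.4, 76.8, 61.5 and 51.6 CPM with nanoparticles alone, 63.1, 70.4, 55.6 and 59.2 CPM at 46 °C, and 72.3, 63.3, 58.4 and 67.1 CPM at 50 °C. It had 69.4, 71.2, 58.0 and 63.8 CPM at 54 °C and 73.6, 63.8, 54.6 and 28.6 CPM in untreated cells. Its group means stood in the order untreated, nanoparticles alone, 46, 50 and 54 °C, but the highest was only 1.19 times the lowest and no pair of neighbours in that order was apart by more than the larger SD. The low untreated mean leaned on replicate 4, at 28.6 CPM the lowest of all libraries. By medians, untreated cells (59.2 CPM) stood above nanoparticles alone (56.5 CPM). The log2 fold change against nanoparticles alone was 0.07 ± 0.21 at 46 °C, 0.14 ± 0.21 at 50 °C and 0.15 ± 0.20 at 54 °C (SE, n = 4 per group; edgeR adjusted p = 0.955, 0.881 and 0.999).

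CD47 (ENSG00000196776, chr3:108043094-108091862, minus strand) had 73.2, 47.2, 70.1 and 60.2 CPM with nanoparticles alone, 56.1, 51.9, 75.2 and 59.8 CPM at 46 °C, and 52.6, 58.1, 40.5 and 59.2 CPM at 50 °C. It had 65.7, 50.3, 39.4 and 59.6 CPM at 54 °C and 47.1, 62.0, 44.9 and 50.3 CPM in untreated cells. The means were 60.8 ± 10.2 CPM at 46 °C, 52.6 ± 8.56 CPM at 50 °C and 53.8 ± 11.5 CPM at 54 °C, against 62.7 ± 11.7 CPM in libraries with nanoparticles alone and 51.1 ± 7.60 CPM in untreated cells (SD, n = 4 each), and the groups overlapped. The log2 fold change against nanoparticles alone was −0.05 ± 0.21 at 46 °C, −0.25 ± 0.20 at 50 °C and −0.22 ± 0.20 at 54 °C (SE, n = 4 per group; edgeR adjusted p = 0.968, 0.728 and 0.984). A fall below 0.632-fold at 50 °C and below 0.649-fold at 54 °C lies outside the 95% intervals.

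THBS1, which encodes thrombospondin-1, a secreted protein that binds CD47, was the only called gene among 8 tested genes that act with CD47 or in phagocytosis signalling (of 9 listed). It had 751.2, 751.8, 816.1 and 911.1 CPM at 46 °C, against 1047, 1138, 997.3 and 1035 CPM in libraries with nanoparticles alone. Its log2 fold change was −0.39 ± 0.10 (SE; edgeR adjusted p = 0.0477) with no overlap between the groups. The call did not survive when any 1 of the 8 libraries was left out, except without replicate 4 of 46 °C (adjusted p from 0.0225 to 0.183, log2 change from −0.54 to −0.24 over all alternatives). It was lost as well with library totals in place of TMM scaling and within replicates 3 and 4. Of all tested genes, 0.963% were called and 6.96% did not overlap at 46 °C against nanoparticles alone. At 50 and 54 °C, 0 of the 8 tested genes of this list were called, against 1.22% and 0.123% of all tested genes.

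CD24 (ENSG00000272398, chr6:106969831-106975627, minus strand), a surface mark for which this line is classically low, had counts of 12, 5, 2 and 5 with nanoparticles alone, 11, 3, 0 and 3 at 46 °C, 6, 12, 0 and 7 at 50 °C, 16, 32, 17 and 0 at 54 °C, and 9, 0, 9 and 0 in untreated cells. These are 149 counts in 20 libraries, with 5 libraries at 0, and 3 pseudogene copies of CD24 are annotated, so that reads may be shared among them. Its log2 fold change at 54 °C against nanoparticles alone had an interval from −2.17 to 3.32. No change of CD24 was detectable at this depth.

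**Figure D3:**
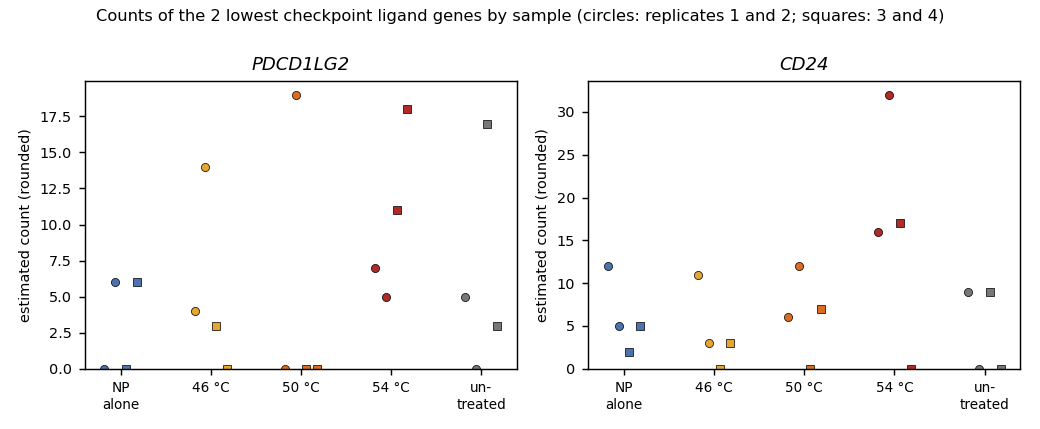
Rounded estimated counts of PDCD1LG2 and CD24 in each library, by group (circles, replicates 1 and 2; squares, replicates 3 and 4; linear axes from 0). The counts reach 19 for PDCD1LG2 and 32 for CD24, and 0 occurs in 7 and 5 libraries.

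CD55 (ENSG00000196352, chr1:207321376-207386804, plus strand) encodes decay-accelerating factor. It had 87.6, 86.6, 75.4 and 71.2 CPM with nanoparticles alone, 65.0, 70.7, 66.2 and 72.8 CPM at 46 °C, and 94.7, 67.8, 94.9 and 85.0 CPM at 50 °C. It had 80.3, 70.4, 86.0 and 55.6 CPM at 54 °C and 80.9, 94.6, 85.0 and 80.9 CPM in untreated cells. The 46 °C libraries lay close together, and their highest was above the lowest library with nanoparticles alone. They were also below all 4 untreated libraries, but that contrast was not tested and its share over all genes was not counted. The log2 fold change against nanoparticles alone was −0.22 ± 0.17 at 46 °C, 0.09 ± 0.17 at 50 °C and −0.14 ± 0.17 at 54 °C (SE, n = 4 per group; edgeR adjusted p = 0.713, 0.912 and 0.999). Between 50 and 46 °C, CD55 had the smallest unadjusted p of the 9 genes, with a log2 difference of 0.32 ± 0.17 (unadjusted p = 0.0708 and adjusted p = 0.535, both from edgeR), which did not pass.

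CD59 (ENSG00000085063, chr11:33703010-33736491, minus strand, with another coding gene model, AL049629.2, annotated over it on the same strand) was the most deeply counted of the 9, with 587 to 1563 counts per library. It had 230.7, 203.6, 229.5 and 215.2 CPM with nanoparticles alone, 242.5, 249.1, 233.5 and 195.0 CPM at 46 °C, and 177.5, 177.7, 186.5 and 239.6 CPM at 50 °C. It had 213.2, 198.2, 196.5 and 208.1 CPM at 54 °C and 272.7, 261.5, 250.3 and 358.8 CPM in untreated cells. Nanoparticles alone and untreated cells did not overlap: the 4 libraries with nanoparticles alone were all lower. Of all tested genes, 2.73% did not overlap in this comparison, and CD59 was the 1 of the 9 that did not.

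The means of CD59 were 219.8 ± 12.9 CPM with nanoparticles alone and 285.8 ± 49.5 CPM in untreated cells (SD, n = 4 each). The log2 fold change was −0.38 ± 0.13, with a 95% interval from −0.65 to −0.11 and an unadjusted p of 0.00607, but its adjusted p was 1 in edgeR's quasi-likelihood test, and the difference was not called. Against nanoparticles alone the log2 fold change was 0.07 ± 0.13 at 46 °C, −0.17 ± 0.13 at 50 °C and −0.11 ± 0.13 at 54 °C (SE, n = 4 per group; edgeR adjusted p = 0.92, 0.714 and 0.999), and the groups overlapped. These laser intervals ended at 0.871-fold and 1.26-fold at 46 °C, 0.739-fold and 1.07-fold at 50 °C, and 0.773-fold and 1.12-fold at 54 °C. CD59 had the largest spread of group means of the 7 genes, 1.46 times between the highest and the lowest, against 1.19 to 1.35 times in the others. It was also the only one with neighbours in the order of means apart by more than the larger SD: nanoparticles alone over 54 °C and untreated cells over 46 °C.

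One further comparison, of all nanoparticle libraries with untreated cells, was added after the levels of CD59 had been seen, so its result is a description of these libraries and no independent support. The 16 libraries with nanoparticles, at any laser setting, had 177.5 to 249.1 CPM of CD59 (median 210.6), and the 4 untreated libraries had 250.3 to 358.8 CPM. All 16 were below the lowest untreated library, by a narrow margin at the nearest point. The means were 212.3 ± 23.1 CPM (SD, n = 16) and 285.8 ± 49.5 CPM (SD, n = 4). The log2 fold change was −0.43 ± 0.10 (SE), with a 95% interval from −0.64 to −0.23 and an edgeR quasi-likelihood adjusted p of 0.0301 (Benjamini-Hochberg). CD59 was 1 of 9 called, where 0.354% of all tested genes were called (26 higher and 17 lower), 8.16% had an unadjusted p under 0.05 and 0.115% (14 genes) did not overlap.

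A shared direction under all 27 alternatives was no further support, since every nanoparticle library was already below every untreated one. Under these alternatives the log2 change ran from −0.52 to −0.30 and the adjusted p (edgeR or DESeq2) from 0.00327 to 0.371. The call was lost in 6 of them: without replicate 1, 2 or 4 of untreated cells (adjusted p = 0.0807, 0.0521 and 0.371), without replicate 2 of nanoparticles alone (0.0545), within replicates 1 and 2 (0.105) and within replicates 3 and 4 (0.0646). Without replicate 4 of untreated cells, the highest library of CD59, the log2 change was −0.30. That library had the fewest counts of the untreated group (2428489). It also had the highest TMM factor of all libraries (1.067) and the lowest share of counts in tested genes (99.67%). In this comparison 0 of the other 8 genes were called, CD55 had −0.16 ± 0.13 and CD47 0.17 ± 0.17 (adjusted p = 0.859 and 0.879), and of 26 tested genes of GPI anchor synthesis 0 were called.

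**Figure D4:**
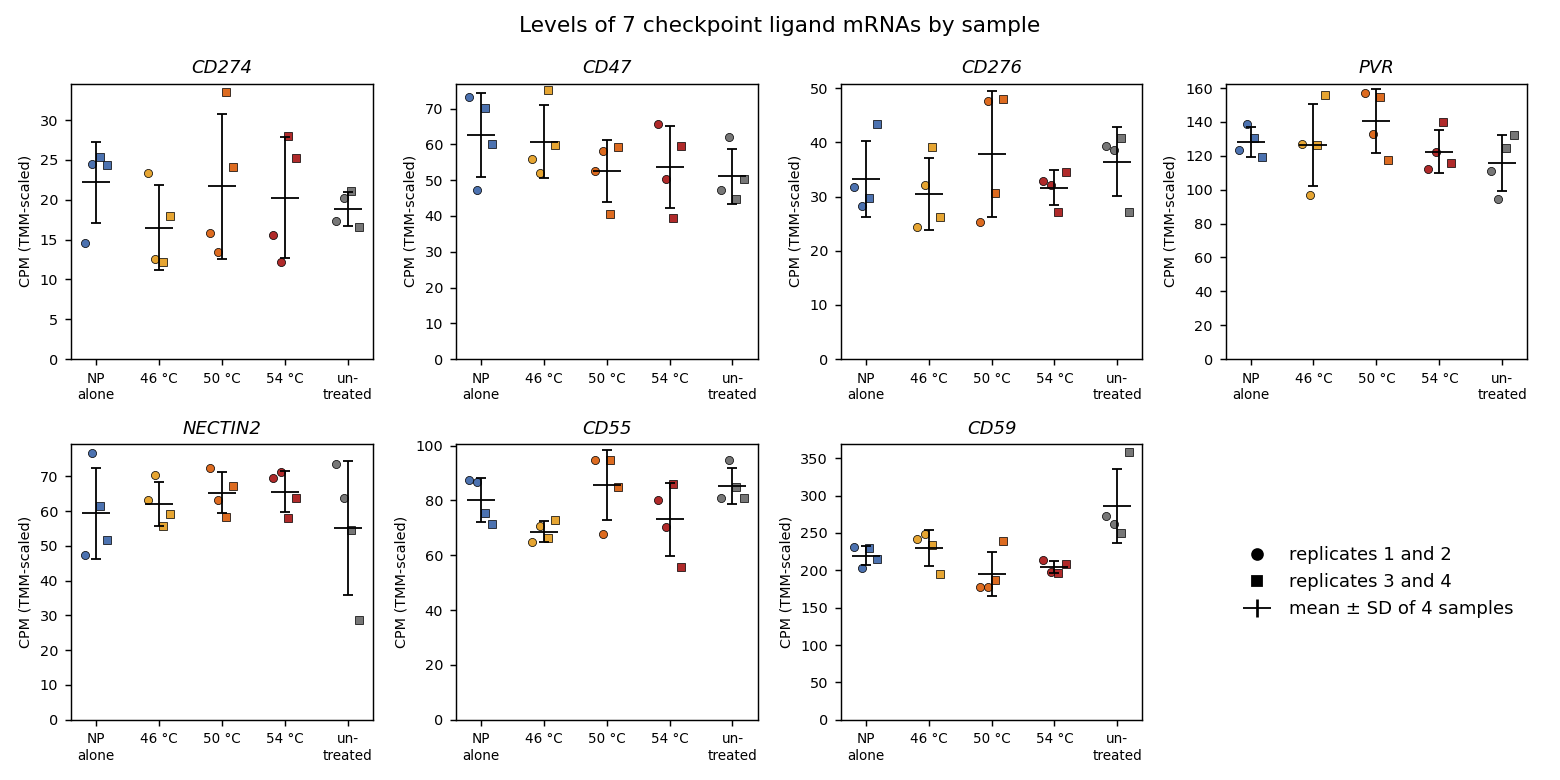
Levels (CPM, linear axes from 0) of the 7 judged genes in the 20 libraries, by group (circles, replicates 1 and 2; squares, replicates 3 and 4; bars, mean ± SD of 4 samples). In the CD59 panel the 4 untreated libraries, at 250.3 to 358.8 CPM, lie above the 16 nanoparticle libraries, at 177.5 to 249.1 CPM; in the other panels every laser group overlaps nanoparticles alone.

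Of the 14 promoter windows of the 9 genes, the only ones with a heat shock factor or AP-1 match belonged to CD59, a gene not called at any temperature, and they are shown beside that of HSPA1A, whose mRNA had a log2 fold change of 5.93 ± 0.31 at 46 °C against nanoparticles alone (edgeR adjusted p = 1.48e-09). The heat shock factor element was found in 1 of the 14 windows and the AP-1 site in 1, against 6.77% and 7.71% of 35116 promoters. These counts are near what those shares alone would give. The sequences are from RefSeq (GRCh38.p14). Capitals mark GAANNTTC in HSPA1A and in the upstream CD59 window, 106 and 235 bases before the start, and TGANTCA in a downstream CD59 window, at 117 and 23 bases before and at base 4 after the start; both motifs read the same on either strand.
HSPA1A, chr6:31815293-31815592, plus strand: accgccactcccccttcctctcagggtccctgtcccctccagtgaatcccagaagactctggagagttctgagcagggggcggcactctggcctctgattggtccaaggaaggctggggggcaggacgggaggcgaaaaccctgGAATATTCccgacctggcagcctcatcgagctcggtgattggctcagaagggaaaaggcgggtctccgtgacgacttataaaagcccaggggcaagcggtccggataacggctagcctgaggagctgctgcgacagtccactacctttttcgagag
CD59, upstream start, chr11:33736430-33736729, minus strand: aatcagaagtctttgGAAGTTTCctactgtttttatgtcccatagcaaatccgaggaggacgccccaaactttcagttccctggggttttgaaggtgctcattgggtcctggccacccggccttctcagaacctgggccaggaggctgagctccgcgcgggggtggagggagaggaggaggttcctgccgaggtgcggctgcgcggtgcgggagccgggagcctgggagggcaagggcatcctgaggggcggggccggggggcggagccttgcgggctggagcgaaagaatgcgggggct
CD59, downstream start, chr11:33722678-33722977, minus strand: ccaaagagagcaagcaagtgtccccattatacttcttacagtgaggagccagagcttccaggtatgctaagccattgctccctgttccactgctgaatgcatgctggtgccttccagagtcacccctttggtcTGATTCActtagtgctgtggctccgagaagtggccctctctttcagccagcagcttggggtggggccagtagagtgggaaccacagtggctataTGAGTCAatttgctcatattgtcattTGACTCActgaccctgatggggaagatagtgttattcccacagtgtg
Each of the CD59 windows overlaps another listed one, and neither of those held a match. Which of these starts the cells use was not measured. CACGTG was found in 0 of the 14 windows.

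For each of the 9 genes the longest annotated 3' untranslated region was taken from coding transcripts of GENCODE v29. These regions differ in their number of ATTTA, the core of AU-rich elements that can mark an mRNA for decay. The genes have from 1 (PDCD1LG2) to 12 (CD276) annotated coding 3' ends, with 9 for CD55. Which ends the cells use was not measured, so the densities may not hold for the mRNAs counted. CD55 had 9 in 1356 bases, or 6.64 per kb, a density reached or passed by few of 17026 genes (percentile 96.8), and CD274 had 14 in 2704 bases, 5.18 per kb (percentile 92.9). CD47 had 4.53 per kb (percentile 89.7), against a median of 1.69 per kb over all genes. CD59, PDCD1LG2, CD276 and PVR were below that median, with 1.41, 0.772, 0.64 and 0.564 per kb. The 3 genes with the highest density, CD55, CD274 and CD47, had log2 changes of −0.22, −0.42 and −0.05 at 46 °C, and PVR and CD276, with the lowest densities, had −0.02 and −0.13, none of them called. NECTIN2 and CD59, with densities in between, both had 0.07. At 50 °C CD55, CD274 and CD47 had 0.09, −0.03 and −0.25, and PVR and CD276 had 0.13 and 0.19. At 54 °C the same genes had −0.14, −0.13, −0.22, −0.07 and −0.07. NECTIN2 and CD59 had 0.14 and −0.17 at 50 °C, and 0.15 and −0.11 at 54 °C. A link between density and these changes was not tested.

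A division of these libraries into replicates 1 and 2 and replicates 3 and 4 was known from an earlier look at these same data. The labels name no batch, so a count of genes that differ between the pairs is a description and no independent support. Each comparison was also fitted within each pair. Over all groups, 1072 genes (8.82% of those tested) differed between the pairs, and 0 of the 9 were among them; CD274 was higher in replicates 3 and 4 by 0.42 ± 0.21 on the log2 scale (adjusted p = 0.238) and NECTIN2 lower by −0.28 ± 0.12 (adjusted p = 0.168, both from edgeR). Within replicates 1 and 2, CD274 had log2 changes against nanoparticles alone of −0.13 ± 0.46 at 46 °C, −0.43 ± 0.46 at 50 °C and −0.50 ± 0.45 at 54 °C. Within replicates 3 and 4 they were −0.72 ± 0.45, 0.21 ± 0.44 and 0.10 ± 0.43 at the same temperatures, so the sign differed between the pairs at 50 and 54 °C. Of the 7 judged genes the sign was shared by both pairs for 4 at 46 °C, 5 at 50 °C and 4 at 54 °C, and only NECTIN2 kept 1 sign, positive, in both pairs at all 3 temperatures. No gene of the 9 was called within either pair, nor was a difference between the pairs in the response to laser called for any of them, where 0, 0 and 1 of all tested genes were called at 46, 50 and 54 °C. In the 7 planned comparisons the smallest adjusted p within a pair was 0.0669, for CD59 between 50 and 46 °C in replicates 1 and 2 (log2 change −0.47 ± 0.14), and in replicates 3 and 4 the change was −0.01 ± 0.17.

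**Figure D5:**
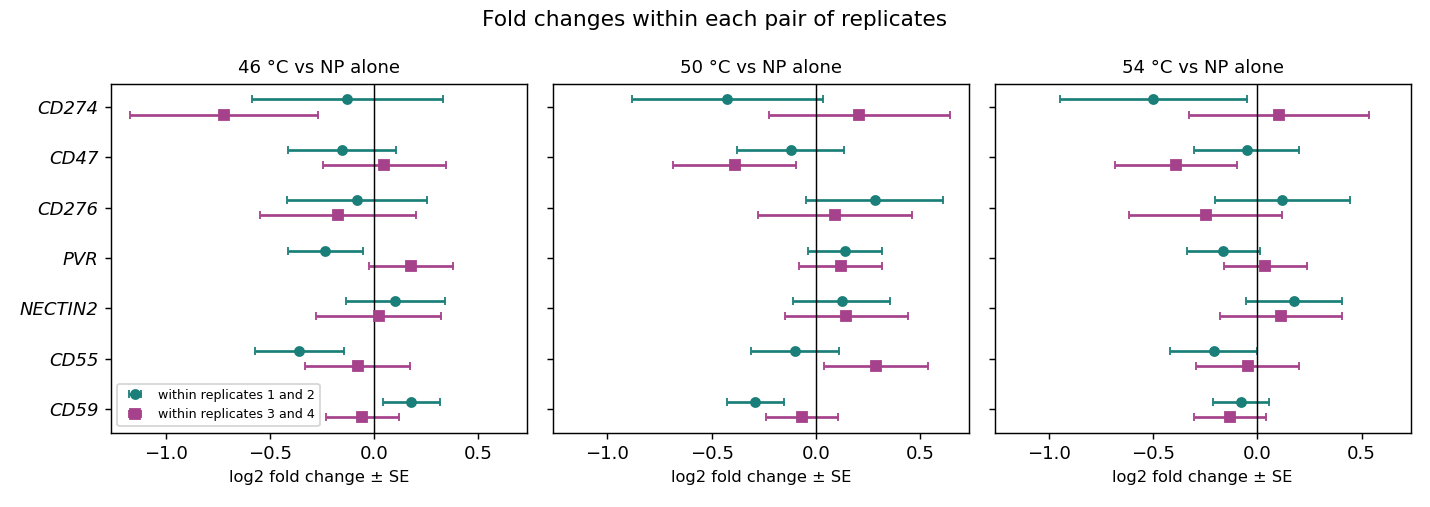
Log2 fold change ± SE of the 7 judged genes at each laser temperature against nanoparticles alone, within replicates 1 and 2 and within replicates 3 and 4 (2 samples a group). At 50 and 54 °C the points of CD274 lie on opposite sides of 0, and those of NECTIN2 lie above 0 in all 3 panels.

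Pearson's r over 20 libraries between pairs of the 7 judged genes, given as a description over points that share groups and depth, ran from −0.561 (NECTIN2 with CD59) to 0.253 (CD274 with PVR), with a median of −0.065 over 21 pairs. The NECTIN2 with CD59 value includes replicate 4 of untreated cells, the highest library for CD59 (358.8 CPM) and the lowest for NECTIN2 (28.6 CPM). The summed level of the 7 judged genes, with PDCD1LG2 and CD24 included, ran from 588.1 to 609.6 CPM at 46 °C, 568.6 to 642.3 CPM at 50 °C and 561.7 to 592.4 CPM at 54 °C, against 588.1 to 622.7 CPM in libraries with nanoparticles alone. In untreated cells the sum was 629.9 to 695.9 CPM, above all 4 libraries with nanoparticles alone and overlapping the 50 °C range. CD59, already seen not to overlap between untreated cells and nanoparticles alone, is the largest part of the sum. How often sums of other genes do not overlap was not counted.

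Other ligands and related genes of these pathways were read from lists. Against nanoparticles alone, 0.963%, 1.22% and 0.123% of all tested genes were called at 46, 50 and 54 °C. Of 37 further checkpoint and costimulatory ligands and related genes (such as ICOSLG, LGALS9, HLA-E and ICAM1), 19 were tested. At 46, 50 or 54 °C against nanoparticles alone 0 were called, with median log2 changes of 0.10, 0.24 and 0.07. CD80, CD86, VTCN1, HHLA2, HLA-G and FGL1 had 0 counts in all 20 libraries. Of 8 ligands of NKG2D, the activating receptor that reads stress on tumour cells, 5 were tested and 0 were called at any temperature, with medians of −0.12, 0.20 and −0.28. Of 9 further genes of complement and its control, 4 were tested and 0 were called. CD55, CD59 and CD24 depend on GPI anchor synthesis for membrane attachment. Of 29 genes of that synthesis, 26 were tested and 0 were called.

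Signs of RNA composition moved with temperature beside these results. The shares of all tested genes called against nanoparticles alone were 0.963%, 1.22% and 0.123% at 46, 50 and 54 °C. The 13 mitochondrially encoded mRNAs summed to 42440 to 53920 CPM at 46 °C, 151700 to 211000 CPM at 50 °C and 124400 to 154100 CPM at 54 °C, against 107200 to 125000 CPM in libraries with nanoparticles alone, with 9 called lower at 46 °C, 6 called higher at 50 °C and 1 called lower at 54 °C. Of 5 tested nuclear long noncoding RNAs, 3 were called higher at 46 °C, 2 higher and 1 lower at 50 °C, and 2 higher at 54 °C; of 7 tested histone mRNAs, 0, 2 and 0 were called higher at 46, 50 and 54 °C. Their part in the levels of the checkpoint ligands was not tested.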

How the data were processed

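Expected counts per gene for 20 libraries (QuantSeq 3' FWD kit, per the labels) come from the authors' use of Salmon and STAR with build GRCh38 (submitters' processing notes); their versions, annotation, strand setting and use of molecular identifiers are not stated there. Of the deposited estimated counts, 1.74% to 2.9% per library were not whole, and all were rounded. The 9 genes, the other gene lists and the replicate pairs were chosen with earlier results of these data known. The named genes are the 9, and of each other list the genes called at a laser temperature against nanoparticles alone (at most 3 by smallest p); heat shock genes check the treatment.

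Genes were filtered (count of 10 in enough samples, total of 15) and fitted with edgeR 4.0.16 in R 4.3.3: TMM scaling, robust quasi-likelihood, 5 group means over 20 libraries, Benjamini-Hochberg adjustment over 12149 genes. Intervals are the fit's 95% intervals and cover the spread between samples. Alternatives were DESeq2 1.42.0, library totals, no filter, the replicate number as a block, a term for replicate pairs, fits within pairs, and each replicate left out. Recovery of known changes was checked on simulated data. Each motif was sought on both strands. The step that would name genes of like pattern named none, since no listed gene was called against nanoparticles alone.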

Additional observations from a re-analysis of the deposited data

Results flagged for a closer look

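In 45 groups of 4 libraries (9 genes in 5 groups), 4 held a library set apart from the other 3 by more than Dixon's 95% critical value, where chance marks about 1 in 20 groups. CD274 had 14.6 CPM in replicate 1 of nanoparticles alone, where the other 3 libraries had 24.3 to 25.4 CPM. PDCD1LG2 had 4.72 CPM (19 counts) in replicate 2 of 50 °C, where the other 3 libraries were at 0. CD276 had 27.1 CPM in replicate 4 of untreated cells, where the others had 38.6 to 40.8 CPM. CD59 had 239.6 CPM in replicate 4 of 50 °C, where the others had 177.5 to 186.5 CPM. Leaving out each library in turn led to no call of these genes in the 7 comparisons.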

How the results depend on the processing

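The 9 genes' fold changes in the 7 comparisons were recomputed 945 times under the alternatives; 0 were called under any of them and 87 had the other sign, none of these being a called value. The count of all genes called was less stable. With DESeq2 it was 191 at 46 °C, 288 at 50 °C and 36 at 54 °C against nanoparticles alone, 260 for 50 against 46 °C, 58 for 54 against 50 °C and 119 for 54 against 46 °C. With library totals it was 277 at 50 °C, 420 for 50 against 46 °C and 38 for 54 against 50 °C. With no filter it was 38 at 54 °C and 2 for nanoparticles alone against untreated cells.

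With the replicate number as a block the counts were 269, 333 and 46 at 46, 50 and 54 °C, and 353, 68 and 160 between temperatures (50 against 46 °C, 54 against 50 °C, 54 against 46 °C); the block called none of the 9. Libraries with the same number correlated by 0.022 to 0.066 in their deviations from the group means, under the 0.1 asked of every pair, so the numbers were not taken to pair single libraries. Replicates 1 and 2 still differed from 3 and 4 across the groups in 1072 genes, a split first seen in these same data, and the block and the pair term take it up. With the term for replicate pairs the counts were 263, 330, 43, 341, 69 and 160 in the same order. Within replicates 1 and 2 they were 250 at 46 °C, 4 for nanoparticles alone against untreated cells, 224 for 50 against 46 °C and 213 for 54 against 46 °C; within replicates 3 and 4 they were 64 at 46 °C, 61 at 50 °C, 2, 81 and 43.

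Leaving out 1 replicate gave 81 to 127 genes at 46 °C, 81 to 124 at 50 °C, 8 to 18 at 54 °C, 0 to 1 for nanoparticles alone against untreated cells, 95 to 137, 18 to 29 and 50 to 74 between temperatures. In the comparison of all nanoparticle groups with untreated cells, added after the data were seen, the count was 43, and it was 84 with DESeq2, 221 with no filter, 105 with the block, 103 with the pair term, 126 within replicates 1 and 2 and 20 to 45 with 1 replicate left out, and the count of the 9 called, 1, was 0 within either pair and 0 to 1 with 1 replicate left out. The cause of these shifts was not tested. Of the called genes, 64.1% were higher with TMM scaling and 74.2% with library totals at 46 °C, 43.2% and 18.1% at 50 °C, 49% and 11% for 50 against 46 °C, 29.2% and 57.9% for 54 against 50 °C, and 37.7% and 20.6% for 54 against 46 °C. The median log2 change of all genes was 0.02 with TMM scaling and −0.10 with library totals at 50 °C, and −0.004 and −0.18 for 50 against 46 °C.

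Low counts limit PDCD1LG2 and CD24 throughout. For CD274 the spread between libraries of a group was 11.5% to 41.9% of the mean, and its interval passed 2-fold at 46 °C and for 50 against 46 °C. Without the low-count filter both low genes were fitted again and 0 were called.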
